A study of Mus musculus with 9 samples.

Results

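The 10 genes described here encode the machinery that carries a cell through the G1 phase of its division cycle: the D-type cyclins (Ccnd1, Ccnd2, Ccnd3), the kinases they and the later cyclins activate (Cdk4, Cdk6, Cdk2), the inhibitors of those kinases (Cdkn1a, Cdkn1b, Cdkn2c) and the retinoblastoma protein that the kinases act on (Rb1). They were taken by gene symbol from the deposited count table, in which each has 1 row among 51826 genes, and all 10 had enough counts to be tested, as did 14458 genes in all. The cells were RAW 264.7, a transformed mouse macrophage line that divides continuously in culture, so the series describes 1 line and no primary macrophage. RNA captured by its poly(A) tail was sequenced from 3 groups of 3 libraries, called biological replicates in the labels. Vehicle cells received solvent only, without a stated time. LPS cells received lipopolysaccharide, the bacterial cell wall component sensed by TLR4, at 300 ng/mL for 6 h. Calycosin plus LPS cells received the isoflavone calycosin at 100 µg/mL for 24 h and then the same LPS exposure. No library had calycosin without LPS. The design asks how LPS changes the transcriptome and what calycosin given beforehand changes in that response.

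D-type cyclins bind CDK4 or CDK6 and phosphorylate the retinoblastoma protein, which then releases E2F factors that switch on the genes of DNA replication. Cyclin E with CDK2 completes that step. The CIP/KIP inhibitors p21 (Cdkn1a) and p27 (Cdkn1b) bind cyclin-kinase complexes, while INK4 inhibitors such as p18 (Cdkn2c) bind CDK4 and CDK6 alone and keep the cyclin away. In macrophages the growth factor CSF1 drives D-type cyclin expression, and LPS is known as a signal that stops macrophage division. The files hold RNA only, so neither the proteins nor the phosphorylation of the retinoblastoma protein was measured, and in bulk RNA a smaller share of cells that express a gene and less of its RNA per cell cannot be told apart.

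Total counts were 27784737 to 38524105 per library. Genes encoded in mitochondria took 13.01% to 14.68% of counts in the LPS libraries, but 3.79%, 3.68% and 21.94% in vehicle replicates 1, 2 and 3, and 17.25%, 7.45% and 19.4% in calycosin plus LPS replicates 1, 2 and 3. Vehicle replicate 3 and calycosin plus LPS replicate 2 therefore stand apart from the other libraries of their groups. All 10 macrophage markers had counts, but Mertk had at most 4 in any library and was too low to be tested. The summed level of the 10 was 5727.2 to 7543.5 CPM (counts scaled to the size of the library) in vehicle libraries. It was 4222.2 to 4377.8 with LPS and 3794.0 to 4166.2 with calycosin plus LPS. The sums are scaled to total counts, while levels of single markers carry edgeR's TMM factors, explained below. Those factors were 1.42, 1.42 and 1.05 in vehicle replicates 1 to 3 and 0.791, 0.786 and 0.813 with LPS. How much of the lower macrophage sum with LPS came from single genes was not worked out on 1 scale. On the TMM scale Lyz2 went from 2560.0 to 1193.4 CPM and Csf1r from 477 to 127 CPM. Of the 9 macrophage markers tested 4 rose with LPS (Cd14, Fcgr1, Ptprc, Spi1) and 3 fell, so the sum does not stand for most of them. Among markers of other cell types, Ncr1, Epcam, Krt8, Ly6g and Flt3 were at 0 counts in every library, and the summed level of the 16 markers listed was 1.79 to 2.19, 3.88 to 5.19 and 1.79 to 2.21 CPM in the 3 groups. On the TMM scale the endothelial marker Cdh5 was at 0.354 CPM in vehicle, 4.76 CPM with LPS and 0.671 CPM with calycosin plus LPS. The dendritic cell marker Zbtb46 went the other way (0.505, 0.113 and 0.867 CPM). Both sums differ between the groups, and their part in the results below was not tested.

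The libraries that stand apart also differed in the G1 genes, in an order that followed GC content. In vehicle replicate 3 the level of a member divided by its mean in vehicle replicates 1 and 2 ran from 0.501 for Ccnd3 to 1.86 for Rb1. Rb1 and Cdkn1b, whose longest transcripts have the lowest GC content of the 10 (41.22% and 43.08%), had the highest ratios, at 1.86 and 1.59. Ccnd3 and Cdkn2c, with the highest GC content (56.69% and 58.03%), had the lowest ratios, at 0.501 and 0.572. Calycosin plus LPS replicate 2 had the opposite order, from 0.688 for Cdkn1b to 1.94 for Ccnd3 against the mean of replicates 1 and 3. Over the 10 members Spearman's rho between GC content and the ratio was -0.94 for the first library and 0.84 for the second. These are descriptions of single libraries over genes that share them, without a test.

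From here on levels of 1 gene between libraries are given as CPM with the library size scaled by edgeR's TMM factors (trimmed mean of M values), which take most genes as equal between libraries. A gene was called changed when the adjusted p of edgeR's quasi-likelihood F test was under 0.05 over all 14458 genes. With LPS against vehicle 3 of the 10 members rose (Ccnd2, Cdk6, Cdkn1a) and 4 fell (Ccnd1, Cdk2, Cdk4, Cdkn2c), where 27.3% of all genes tested rose and 28.9% fell. Together 7 of 10 were called, beside 56.3% of all genes, and in the same 7 the libraries of the 2 groups did not overlap, beside 60.8% of all genes. With calycosin plus LPS against LPS 1 member rose (Cdkn2c) and 4 fell (Ccnd1, Ccnd2, Cdk6, Cdkn1a), where 16.1% of all genes rose and 12.9% fell. These 5 of 10 members, beside 29.1% of all genes, were also the 5 without overlap, beside 49.7%. With calycosin plus LPS against vehicle 3 rose and 4 fell, as with LPS alone, where 25.4% of all genes rose and 23.6% fell. The 7 called compare with 49% of all genes, and 6 of them did not overlap, beside 56.2%. In LPS against vehicle the share of members called is near that of all genes. The 3 comparisons share libraries: the LPS libraries stand in the first and second and the vehicle libraries in the first and last, so their values are given side by side and are not independent of each other.

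**Figure D1:**
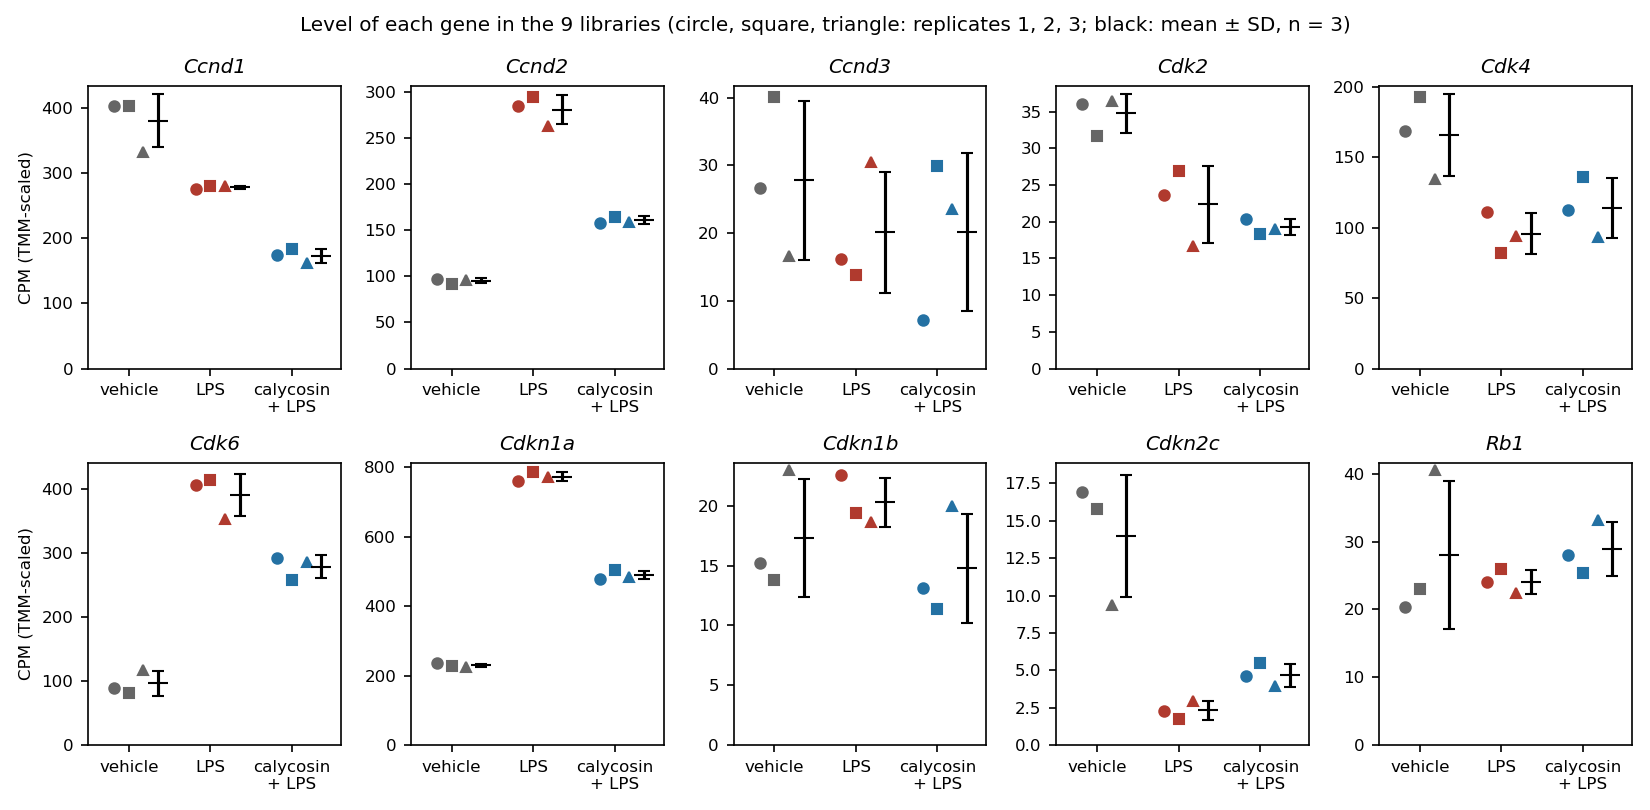
Level of each of the 10 genes in the 9 libraries, in CPM (vertical axis, starting at 0) by group (horizontal axis); circles, squares and triangles are replicates 1, 2 and 3, and black bars are group means with the SD of 3 libraries. Ccnd2, Cdk6 and Cdkn1a are highest in the 3 LPS libraries, Cdkn2c is lowest there, and all pairs of groups overlap for Ccnd3, Cdkn1b and Rb1.

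The D-type cyclins went separate ways. Ccnd1 fell with LPS and lay lower still with calycosin, Ccnd2 rose 2.94-fold with LPS and fell with calycosin, and Ccnd3 passed no test. Cyclin D1 (Ccnd1, ENSMUSG00000070348, chr7:144929931-144939925, minus strand, GRCm38) is the form most tied to growth factor signals. It stood at 403, 403 and 333 CPM in vehicle replicates 1 to 3, at 275, 280 and 280 CPM with LPS and at 174, 183 and 162 CPM with calycosin plus LPS. The 3 groups did not overlap in any pair, and the LPS libraries were the closest together. The log2 fold change of Ccnd1 was -0.45 (SE 0.11, adjusted p = 0.00702) for LPS against vehicle. It was -0.68 (SE 0.11, adjusted p = 0.00206) for calycosin plus LPS against LPS. Against vehicle, calycosin plus LPS was 2.19-fold lower in Ccnd1 (log2 fold change -1.13, SE 0.11, adjusted p = 3.6e-05). Among the libraries with over 10% mitochondrial counts only, which leave vehicle replicate 3 as the single vehicle library, the LPS difference of Ccnd1 was -0.28 (adjusted p = 0.0547). That fit takes the lone library to vary like those of the other groups, so the missed threshold says little.

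Cyclin D2 (Ccnd2, ENSMUSG00000000184, chr6:127125162-127152193, minus strand) partners the same kinases. It was at 97.2, 92.3 and 96.7 CPM in vehicle libraries, 285, 295 and 264 CPM with LPS and 158, 165 and 159 CPM with calycosin plus LPS. Every LPS library was above every calycosin plus LPS library, and these were all above vehicle. The rise with LPS was 1.56 on the log2 scale (SE 0.1, adjusted p = 7.71e-07). Calycosin plus LPS was 1.75-fold below LPS (log2 fold change -0.81, SE 0.09, adjusted p = 0.000407) and 1.68-fold above vehicle (log2 fold change 0.75, SE 0.09, adjusted p = 0.000159).

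Cyclin D3 (Ccnd3, ENSMUSG00000034165, chr17:47505051-47599691, plus strand) was the least reproducible member. Its levels were 26.7, 40.1 and 16.7 CPM in vehicle libraries, 16.2, 13.8 and 30.5 CPM with LPS and 7.17, 29.9 and 23.6 CPM with calycosin plus LPS. All groups overlapped, and the libraries of a group differed by more than the group means did. Its log2 fold changes were -0.47 (SE 0.51, adjusted p = 0.454) for LPS against vehicle, 0.01 (SE 0.51, adjusted p = 0.995) for calycosin plus LPS against LPS and -0.46 (SE 0.51, adjusted p = 0.474) for calycosin plus LPS against vehicle. With an SE of that size a change of the size seen in Ccnd1 was not detectable. The annotation also lists a pseudogene of Ccnd3, and how reads that fit both were assigned is not given in the sources used here. Ccnd3 further shares 361 exon bases with Bysl on the opposite strand, which had 800 to 2242 counts, beside 229 to 1951 for Ccnd3.

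Because Ccnd1 and Ccnd2 moved apart, the make-up of the D-type cyclin pool changed, described here on the deposited TPM (a level scaled for transcript length and library depth) and without a test. Ccnd1 held 77.4 ± 2.35% (SD, n = 3 libraries) of the summed TPM of the D-type cyclins in vehicle cells, 54.4 ± 2.71% with LPS and 51.7 ± 6.5% with calycosin plus LPS. Ccnd2 held 12.2 ± 1.82%, 35.8 ± 5.58% and 30.8 ± 4.02% in the same order. In single libraries the Ccnd2 share was 10.7% to 14.2% in vehicle, 29.5% to 40% with LPS and 27.5% to 35.3% with calycosin plus LPS, so that vehicle lay apart and the other two groups overlapped. The Ccnd3 share was 6.38% to 14.6%, 5.02% to 18.9% and 5.51% to 24.8%, and overlapped throughout. The summed D cyclin TPM was 316 ± 119 in vehicle, 184 ± 15.4 with LPS and 157 ± 54 with calycosin plus LPS, and the vehicle spread came from 377, 392 and 178 in replicates 1, 2 and 3.

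**Figure D2:**
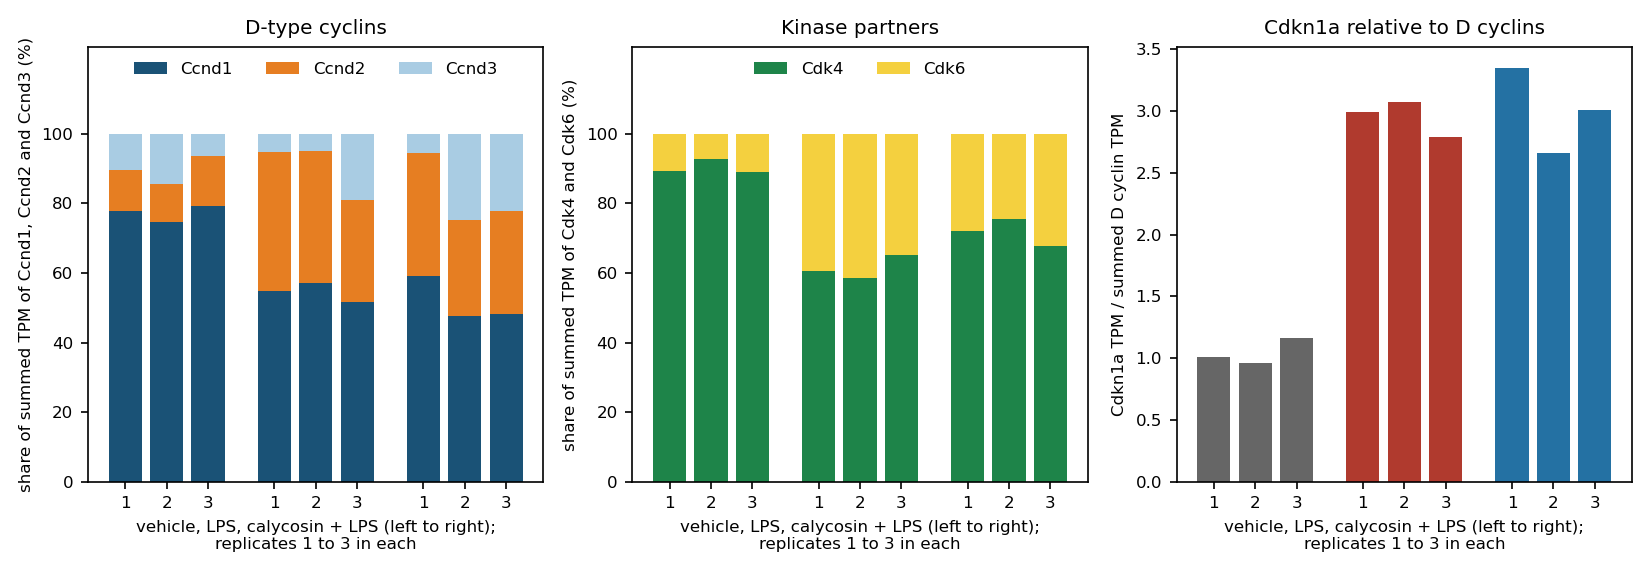
Make-up of the G1 pool per library from deposited TPM (replicates 1 to 3 within vehicle, LPS and calycosin plus LPS, left to right): each D-type cyclin's share of their sum (left, %), the shares of Cdk4 and Cdk6 (middle, %) and the ratio of Cdkn1a to the summed D cyclins (right). The Ccnd2 and Cdk6 shares and the Cdkn1a ratio are lower in all 3 vehicle libraries than in any of the other 6.

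The partner kinases of the D-type cyclins moved in opposite directions with LPS: Cdk6 rose 4.06-fold and Cdk4 fell 1.73-fold. CDK6 (Cdk6, ENSMUSG00000040274, chr5:3341485-3531008, plus strand) was at 89.8, 80.9 and 118 CPM in vehicle libraries, 406, 414 and 353 CPM with LPS and 292, 258 and 286 CPM with calycosin plus LPS. No 2 groups overlapped, and the LPS libraries were the highest. The log2 fold change of Cdk6 with LPS was 2.02 (SE 0.16, adjusted p = 3.82e-06), larger in size than that of 86.0% of genes tested. Calycosin plus LPS stayed 2.89-fold above vehicle (log2 fold change 1.53, SE 0.15, adjusted p = 3.77e-05). Against LPS alone Cdk6 was 1.4-fold lower with calycosin (log2 fold change -0.49, SE 0.15, adjusted p = 0.0367). That last call is close to the threshold: the adjusted p was 0.0685 without the filter on low counts, and 0.108, 0.121, 0.0822, 0.118 and 0.0899 when LPS replicate 1 or 2 or calycosin plus LPS replicate 1, 2 or 3 was left out.

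CDK4 (Cdk4, ENSMUSG00000006728, chr10:127063534-127067920, plus strand) stood at 169, 193 and 135 CPM in vehicle libraries, at 111, 82.1 and 94.1 CPM with LPS and at 113, 136 and 93.6 CPM with calycosin plus LPS. The vehicle libraries were all above the LPS libraries, while the calycosin plus LPS libraries overlapped both other groups. The log2 fold change of Cdk4 was -0.79 (SE 0.18, adjusted p = 0.00463) with LPS against vehicle, and 0.25 (SE 0.18, adjusted p = 0.325) with calycosin plus LPS against LPS. Against vehicle, calycosin plus LPS was lower by -0.54 (SE 0.18, adjusted p = 0.0339). The comparison with vehicle did not pass once counts were corrected for GC content (-0.30, adjusted p = 0.118), when only these 2 groups were fitted (adjusted p = 0.0513), and without vehicle replicate 1 or 2, LPS replicate 3 or calycosin plus LPS replicate 1 or 3, with an adjusted p of up to 0.133. Among libraries with over 10% mitochondrial counts, where vehicle replicate 3 is again the lone vehicle library and is taken to vary like the others, the LPS difference of Cdk4 was -0.52 (adjusted p = 0.055). Cdk4 shares 641 exon bases with Tspan31 on the opposite strand, and Tspan31 rose with LPS by 0.82 on the log2 scale (SE 0.15, adjusted p = 0.000972). Whether counting used strand is not given in the sources used here, so reads of the 2 genes in those bases cannot be told apart.

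Per transcript length, Cdk6 held 9.58 ± 2.12% of the summed TPM of Cdk4 and Cdk6 in vehicle cells, 38.6 ± 3.37% with LPS and 28.2 ± 3.96% with calycosin plus LPS (SD, n = 3 libraries, no test). The single-library shares were 7.13% to 10.9%, 34.9% to 41.5% and 24.4% to 32.3%, and the groups did not overlap. Cdk4 was the more abundant of the 2 in every library, with a Cdk4 to Cdk6 ratio of 9.86 ± 2.72 in vehicle, 1.6 ± 0.232 with LPS and 2.59 ± 0.5 with calycosin plus LPS.

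CDK2 (Cdk2, ENSMUSG00000025358, chr10:128697939-128705031, minus strand), the partner of cyclins E and A, was at 36.1, 31.7 and 36.5 CPM in vehicle libraries, 23.7, 26.9 and 16.7 CPM with LPS and 20.4, 18.4 and 19 CPM with calycosin plus LPS. Vehicle was above both other groups in every library, and those 2 groups overlapped. Cdk2 fell by 0.63 on the log2 scale with LPS (SE 0.17, adjusted p = 0.0104) and by 0.85 with calycosin plus LPS against vehicle (SE 0.17, adjusted p = 0.00271). Between calycosin plus LPS and LPS the log2 difference was -0.22 (SE 0.17, adjusted p = 0.37).

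The sequence in front of Cdk4 and Cdk6 is shown because the 2 kinase genes, which encode alternative partners of cyclin D, moved oppositely. A part of promoter motifs in these changes was not tested. RefSeq promoter windows (GRCm38.p6, 250 bases before to 50 bases after a start) were matched by symbol for 7 of the 10 members, with 10 windows; Ccnd1, Ccnd2 and Rb1 are not shown. In the lines below capitals mark matches to an E-box (CACGTG), an E2F-type motif (TTTNNCGC), a TATA box (TATAAA) and a GC box (GGGCGG), each searched on both strands.
Cdk4, chr10:127063285-127063533, plus strand: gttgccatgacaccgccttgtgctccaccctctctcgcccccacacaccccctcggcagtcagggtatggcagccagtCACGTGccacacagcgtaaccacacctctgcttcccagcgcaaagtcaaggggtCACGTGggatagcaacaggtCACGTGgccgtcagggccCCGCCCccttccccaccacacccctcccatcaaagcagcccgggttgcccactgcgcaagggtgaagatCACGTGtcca
Cdk6, chr5:3343643-3343731, plus strand: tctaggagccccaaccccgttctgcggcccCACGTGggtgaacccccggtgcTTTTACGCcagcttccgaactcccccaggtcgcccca
Cdk6, chr5:3343789-3343892, plus strand: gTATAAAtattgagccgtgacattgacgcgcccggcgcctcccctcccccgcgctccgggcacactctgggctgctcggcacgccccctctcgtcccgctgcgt

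The Cdk4 stretch holds CACGTG, the E-box that Myc and Max dimers can bind, starting 172, 118, 98 and 11 bases before the RefSeq start. The Cdk6 window holds 1 E-box (220 bases before the start), 1 E2F-type match (198 bases before) and 1 TATA box (103 bases before). E-boxes were found in 7.15% of all 32851 promoter windows and in 3 of the 10 member windows (1 each of Cdk4, Cdk6 and Cdkn2c). The E2F-type motif was in 5.17% of all windows and in those of Cdk2 and Cdk6, and the TATA box in 13.6% of all and in that of Cdk6 alone among the members with a window. CRE (TGACGTCA, 1.79% of windows) and AP-1 (TGANTCA, 7.81%) motifs were in none of the members' windows. A match describes letters and is not a measured binding site.

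The inhibitors also split. Cdkn1a had the highest mean TPM of the members in each group, though not in every vehicle library, and rose 3.37-fold with LPS, Cdkn2c fell 6.06-fold, and Cdkn1b passed no test. p21 (Cdkn1a, ENSMUSG00000023067, chr17:29090976-29100727, plus strand) is best known as a target of p53 that blocks CDK2 complexes. It was at 235, 228 and 225 CPM in vehicle libraries, 760, 785 and 771 CPM with LPS and 479, 503 and 484 CPM with calycosin plus LPS. The groups were far apart relative to the spread within them, with calycosin plus LPS in between. The log2 fold change of Cdkn1a with LPS was 1.75 (SE 0.1, adjusted p = 4.64e-07). Calycosin plus LPS was 1.58-fold below LPS (log2 fold change -0.66, SE 0.1, adjusted p = 0.00121) and 2.13-fold above vehicle (log2 fold change 1.09, SE 0.1, adjusted p = 1.72e-05).

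The sequence before the second RefSeq start of Cdkn1a is shown because this gene had the smallest p of the 10 in the LPS comparison; capitals mark GC boxes (GGGCGG).
Cdkn1a, chr17:29093519-29093768, plus strand: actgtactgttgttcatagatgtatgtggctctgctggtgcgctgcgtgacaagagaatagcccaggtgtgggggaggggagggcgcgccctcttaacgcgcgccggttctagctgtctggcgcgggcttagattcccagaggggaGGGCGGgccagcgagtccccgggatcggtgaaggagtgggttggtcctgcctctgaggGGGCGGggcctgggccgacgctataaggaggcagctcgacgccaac
GC boxes, which Sp1 can bind, start 104 and 46 bases before this start. They were found in 35.7% of all windows and in 7 of the 10 member windows, which belong to 6 of the 7 members. The loose kappaB half-site motif (GGG and CC with 5 bases of any kind between) was in 50.8% of all windows. It was in 8 of the 10 member windows, at least 1 for each of the 7 members, and some of its matches overlap GC boxes. The member windows had a GC content of 44.0% to 73.3%, beside a median of 52.7% over all windows. The part of GC content in these shares was not tested.

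p18 (Cdkn2c, ENSMUSG00000028551, chr4:109660876-109667189, minus strand) was the member with the largest LPS change and the lowest counts. It was at 16.9, 15.8 and 9.37 CPM in vehicle libraries, 2.28, 1.72 and 2.95 CPM with LPS and 4.6, 5.47 and 3.92 CPM with calycosin plus LPS. The 3 groups did not overlap, and vehicle replicate 3 was the lowest vehicle library. The LPS values rest on 50, 42 and 71 counts. Cdkn2c fell by 2.6 on the log2 scale with LPS (SE 0.28, adjusted p = 4.04e-05). With calycosin it was 2.02-fold above LPS (log2 fold change 1.01, SE 0.28, adjusted p = 0.0236) and still 3.01-fold below vehicle (log2 fold change -1.59, SE 0.27, adjusted p = 0.000968). The rise over LPS did not pass without LPS replicate 1 or 2 or calycosin plus LPS replicate 1 or 2 (adjusted p = 0.0689, 0.0847, 0.0564 and 0.0747).

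p27 (Cdkn1b, ENSMUSG00000003031, chr6:134920401-134925513, plus strand), a brake on cyclin E with CDK2, was at 15.2, 13.8 and 23 CPM in vehicle libraries, 22.6, 19.4 and 18.7 CPM with LPS and 13.1, 11.4 and 20 CPM with calycosin plus LPS. Vehicle replicate 3 and calycosin plus LPS replicate 3 were the high libraries of their groups, and every pair of groups overlapped. The log2 differences of Cdkn1b were 0.23 (SE 0.25, adjusted p = 0.449) for LPS against vehicle, -0.45 (SE 0.25, adjusted p = 0.202) for calycosin plus LPS against LPS and -0.22 (SE 0.25, adjusted p = 0.48) for calycosin plus LPS against vehicle. With the mitochondrial share of each library in the model, the latter 2 were -0.51 (adjusted p = 0.0168) and -0.42 (adjusted p = 0.0387).

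Of the other CDK inhibitor genes, Cdkn1c, Cdkn2a and Cdkn2b had 0 counts in each of the 9 libraries. A count of 0 allows a level of up to 0.0602 CPM in the deepest and 0.137 CPM in the shallowest effective library, for counting error only. The INK4 gene Cdkn2d fell with LPS, from 14.6 to 6.61 CPM (log2 fold change -1.14, SE 0.31, adjusted p = 0.0102), and its difference between calycosin plus LPS and LPS was -0.44 (SE 0.31, adjusted p = 0.319). Cdkn3, a phosphatase that acts on CDK2, passed no comparison in edgeR (LPS against vehicle -0.34, SE 0.18, adjusted p = 0.134), though its LPS libraries were all below vehicle and limma on log2(TPM + 1) called it lower with LPS. Cdkn2c and Cdkn2d were thus the INK4 genes with counts, and both were lower with LPS in edgeR. With the library medians of TPM set equal, limma called neither Cdkn2d nor Cdkn3 lower with LPS.

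Rb1 (ENSMUSG00000022105, chr14:73183673-73325822, minus strand) was at 20.4, 23 and 40.5 CPM in vehicle libraries, 24, 25.9 and 22.4 CPM with LPS and 28.1, 25.3 and 33.2 CPM with calycosin plus LPS. On this scale all groups overlapped, and vehicle replicate 3 was the highest of the 9 libraries. The log2 differences of Rb1 were -0.21 (SE 0.24, adjusted p = 0.47) with LPS, 0.26 (SE 0.24, adjusted p = 0.448) with calycosin plus LPS against LPS and 0.05 (SE 0.24, adjusted p = 0.884) against vehicle. This gene depended on vehicle replicate 3. Without it the LPS difference was 0.09 (adjusted p = 0.587) and calycosin plus LPS was above vehicle by 0.37 (adjusted p = 0.048). With a GC correction instead, Rb1 was lower with LPS (-0.56, adjusted p = 0.0167), as it was with the mitochondrial share in the model (-0.33, adjusted p = 0.0228). On deposited TPM its groups did not overlap, at 14.1 to 14.4 in vehicle, 7.1 to 7.98 with LPS and 10.8 to 12.6 with calycosin plus LPS. There limma on log2(TPM + 1) called Rb1 lower with LPS (-0.86, adjusted p = 0.00412), while the median of all genes was shifted by -0.7. Without both libraries that stand apart, calycosin plus LPS was above LPS by 0.37 (adjusted p = 0.0407) and above vehicle by 0.46 (adjusted p = 0.0155). Rb1 also shares 488 exon bases with Rcbtb2 and 408 with Lpar6 on the opposite strand, as Ccnd1 does 1100 with LTO1, which had 135 to 505 counts.

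**Figure D3:**
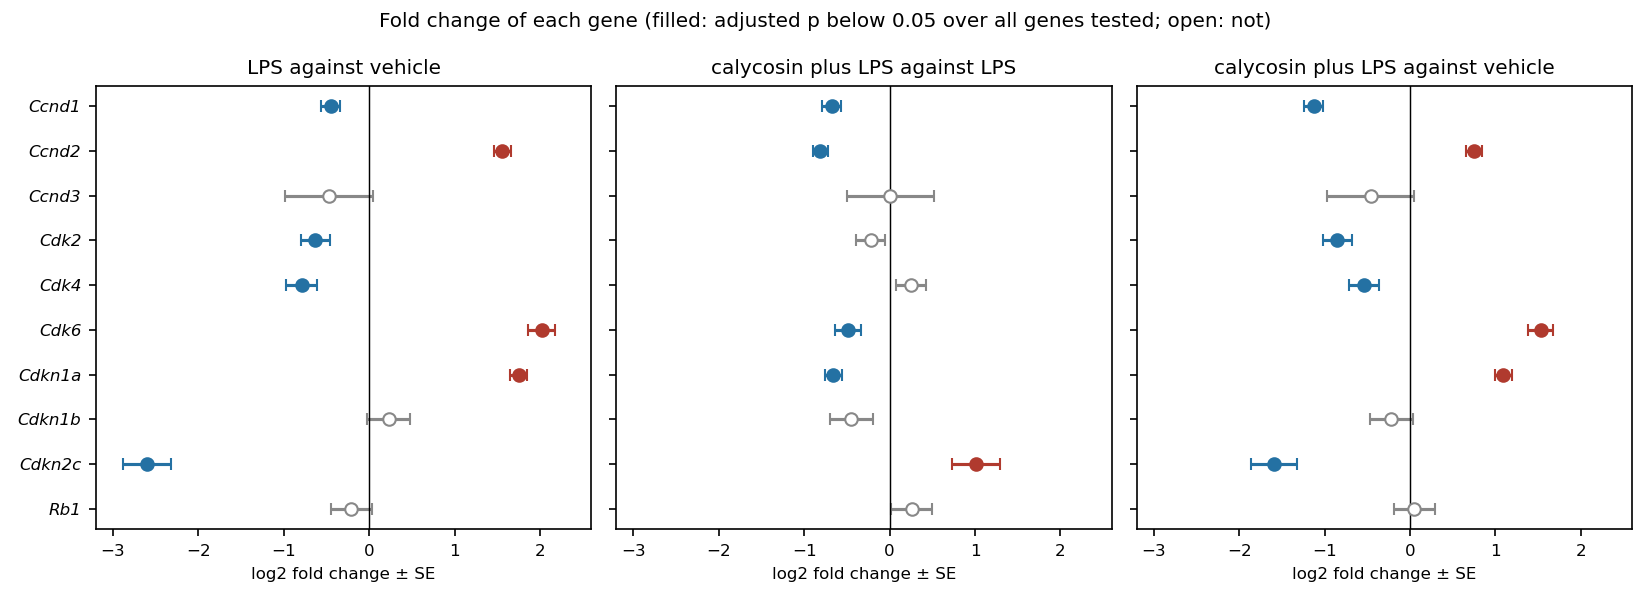
log2 fold change of the 10 genes in the 3 comparisons from edgeR on counts, with error bars of 1 SE; filled points passed an adjusted p of 0.05 and open points did not. Ccnd2, Cdk6 and Cdkn1a lie above 0 with LPS against vehicle and below 0 with calycosin plus LPS against LPS, and Cdkn2c shows the reverse.

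Ranked by deposited TPM, which allows levels of different genes to be compared, Cdkn1a had the highest mean in each group (322 ± 99.7 in vehicle, 542 ± 18.5 with LPS, 461 ± 106 with calycosin plus LPS; SD, n = 3). In vehicle cells Cdk4 (295 ± 112) and Ccnd1 (243 ± 87.8) followed, and the ranges of these 3 genes overlapped. They were above Cdk2 (39.8 ± 10.2), Ccnd2 (37 ± 10.1), Ccnd3 (36.1 ± 23.1) and Cdk6 (30 ± 10.1), whose ranges overlapped each other in that order. Cdkn2c (15.9 ± 7.9), Rb1 (14.3 ± 0.139) and Cdkn1b (11.9 ± 1.05) were the lowest. With LPS the order after Cdkn1a was Ccnd1 (100 ± 3.66), Cdk4 (92.9 ± 6.75), Ccnd2 (65.5 ± 5.63) and Cdk6 (58.3 ± 4.11), and Cdkn2c (1.51 ± 0.337) was last in every LPS library. With calycosin plus LPS it was Cdk4 (152 ± 60.2), Ccnd1 (79.8 ± 22), Cdk6 (57 ± 11.9) and Ccnd2 (47.3 ± 11.5), each overlapping the next, and Cdkn2c (4.41 ± 1.71) was again last.

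The ratio of inhibitor to cyclin on TPM, described without a test, was higher in both groups that received LPS. Cdkn1a divided by the summed D cyclins was 1.01, 0.959 and 1.16 in vehicle libraries, 2.99, 3.07 and 2.79 with LPS and 3.35, 2.66 and 3.01 with calycosin plus LPS. Vehicle lay apart from both LPS groups, which overlapped. Cdkn1a over Cdk2 was 8 ± 0.538, 42.4 ± 10.5 and 30.8 ± 1.07, and the calycosin plus LPS libraries (29.9 to 32) lay below the LPS libraries (35.3 to 54.4). In the counts, Cdkn1a differed between calycosin plus LPS and LPS by -0.66, beside -0.68 for Ccnd1 and -0.81 for Ccnd2.

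The lower Ccnd1, Ccnd2, Cdkn1a and Cdk6 with calycosin depend on the scale. On deposited TPM as they stand, limma on log2(TPM + 1) called 0 members changed between calycosin plus LPS and LPS, against 5 on TMM-scaled counts, and 2 were higher at an unadjusted p under 0.05 and 0 lower. On that scale the log2 differences were -0.36 for Ccnd1 (adjusted p = 0.472), -0.48 for Ccnd2 (adjusted p = 0.236), -0.26 for Cdkn1a (adjusted p = 0.577) and -0.05 for Cdk6 (adjusted p = 0.922), while the median of all genes was shifted by 0.3 against the counts. With the library medians of TPM set equal, the 4 falls passed again and the rise of Cdkn2c did not (0.62, adjusted p = 0.0556). The falls are therefore relative to the median gene of a library. In LPS against vehicle raw TPM shifted the median of all genes by -0.7, and all 3 rises were called on it as well. The sizes depend on the scaling, with TMM factors of 1.05 to 1.42 in vehicle and 0.786 to 0.813 with LPS. Over all alternatives the log2 rise ran from 0.99 to 2.14 for Cdk6, 0.84 to 1.65 for Ccnd2 and 0.8 to 2.09 for Cdkn1a. The falls ran from -1.58 to -0.48 for Cdk4, -1.2 to -0.27 for Ccnd1, -1.57 to -0.45 for Cdk2 and -3.18 to -1.81 for Cdkn2c. In calycosin plus LPS against vehicle the median shift was -0.41, and on raw TPM the rises of Ccnd2 (0.36, adjusted p = 0.281) and Cdkn1a (0.55, adjusted p = 0.143) did not pass, while that of Cdk6 did.

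Other genes of late G1 and S phase entry, many of them under E2F control, were examined as lists. Each count stands beside the shares of all genes tested. With LPS against vehicle 27.3% rose and 28.9% fell. With calycosin plus LPS against LPS 16.1% rose and 12.9% fell. Of 8 genes for late G1 cyclins, their kinase Cdk1, the activating phosphatase Cdc25a and the CDK-activating kinase, 5 fell with LPS (Ccna2, Ccne1, Ccne2, Cdc25a, Cdk1) and 2 rose. The 2 that rose, Ccnh (log2 fold change 0.89) and Mnat1 (1.05), are subunits of the CDK-activating kinase and no S phase cyclins. Cdk7, the other gene of that kinase in the list, was not called (0.08, SE 0.13, adjusted p = 0.634). On raw TPM limma called 0 genes of this list higher with LPS, also at an unadjusted p under 0.05. With the library medians of TPM set equal it called 2 higher. Cyclin E2 (Ccne2) was at 20.7 CPM in vehicle and 2.37 CPM with LPS (log2 fold change -3.12, adjusted p = 2.94e-05), and at 11.1 CPM with calycosin plus LPS (2.22 against LPS, adjusted p = 0.00106). Cyclin E1 (Ccne1) had log2 fold changes of -1.86 (adjusted p = 2.42e-06) and 1.43 (adjusted p = 0.000148), and cyclin A2 (Ccna2) of -1.82 (adjusted p = 7.71e-06) and 0.69 (adjusted p = 0.00855). These 3 were the genes of the list called with calycosin plus LPS against LPS, all higher; 0 were called lower, also at an unadjusted p under 0.05 and by DESeq2.

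Among 12 genes for the other pocket proteins and the E2F and DP factors, 8 fell and 1 rose with LPS (median log2 fold change -1.82, beside -0.07 over all genes tested), while calycosin plus LPS against LPS had 8 higher and 0 lower (median 0.81, beside 0.02). None of them was lower at an unadjusted p under 0.05 or by DESeq2, but the count of higher genes depends on the scale: limma called 4 on log2(TPM + 1) and 2 with the library medians of TPM set equal. The activator E2f2 had the largest fall, from 26.7 to 2.18 CPM (log2 fold change -3.61, adjusted p = 7.71e-07), and was 1.33 above LPS with calycosin (adjusted p = 0.00187). Of the other pocket protein genes, Rbl2 (p130) fell by 2.16 (adjusted p = 1.63e-05) and was 1.57 higher with calycosin (adjusted p = 0.000635), while Rbl1 (p107) was the gene of the list called higher with LPS, by 0.52 (adjusted p = 0.0405). The Rbl1 groups overlap, at 64.7 ± 16 CPM in vehicle and 92.9 ± 14 CPM with LPS (SD, n = 3), and on raw TPM no gene of the list was called higher with LPS by limma (0 at an unadjusted p under 0.05). E2f7, a repressor, had log2 fold changes of -2.38 (adjusted p = 6.78e-05) and 1.4 (adjusted p = 0.00518). The partner subunit gene Tfdp2 had -3.52 (adjusted p = 1.55e-06) and 0.84 (adjusted p = 0.0216).

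Of 18 E2F target genes of S phase entry, which include the 3 cyclins above, 16 fell and 0 rose with LPS (median -1.9, beside -0.07 over all genes; DESeq2 also called 16 lower and 0 higher, and 0 were higher at an unadjusted p under 0.05). Calycosin plus LPS against LPS had 15 higher and 0 lower (median 0.74, beside 0.02 over all genes); limma called 10 higher on each TPM scale, and 1 lower with library medians set equal. In this count the replication licensing gene Cdt1 was lower at an unadjusted p under 0.05 (log2 fold change -0.35, adjusted p = 0.0701), and DESeq2 called 1 gene lower. The loading factor Cdc6 went from 20.7 to 2.06 to 7.11 CPM in vehicle, LPS and calycosin plus LPS, with log2 fold changes of -3.32 (adjusted p = 2.13e-07) and 1.78 (adjusted p = 0.000138). The replicative helicase subunit gene Mcm7 went from 88.7 to 10.9 to 26.5 CPM (-3.03, adjusted p = 3.4e-07, and 1.28, adjusted p = 0.000486). Against vehicle 17 of the 18 were still lower with calycosin plus LPS. The list was drawn up with results for replication genes in these libraries known, so its direction is no independent evidence.

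**Figure D4:**
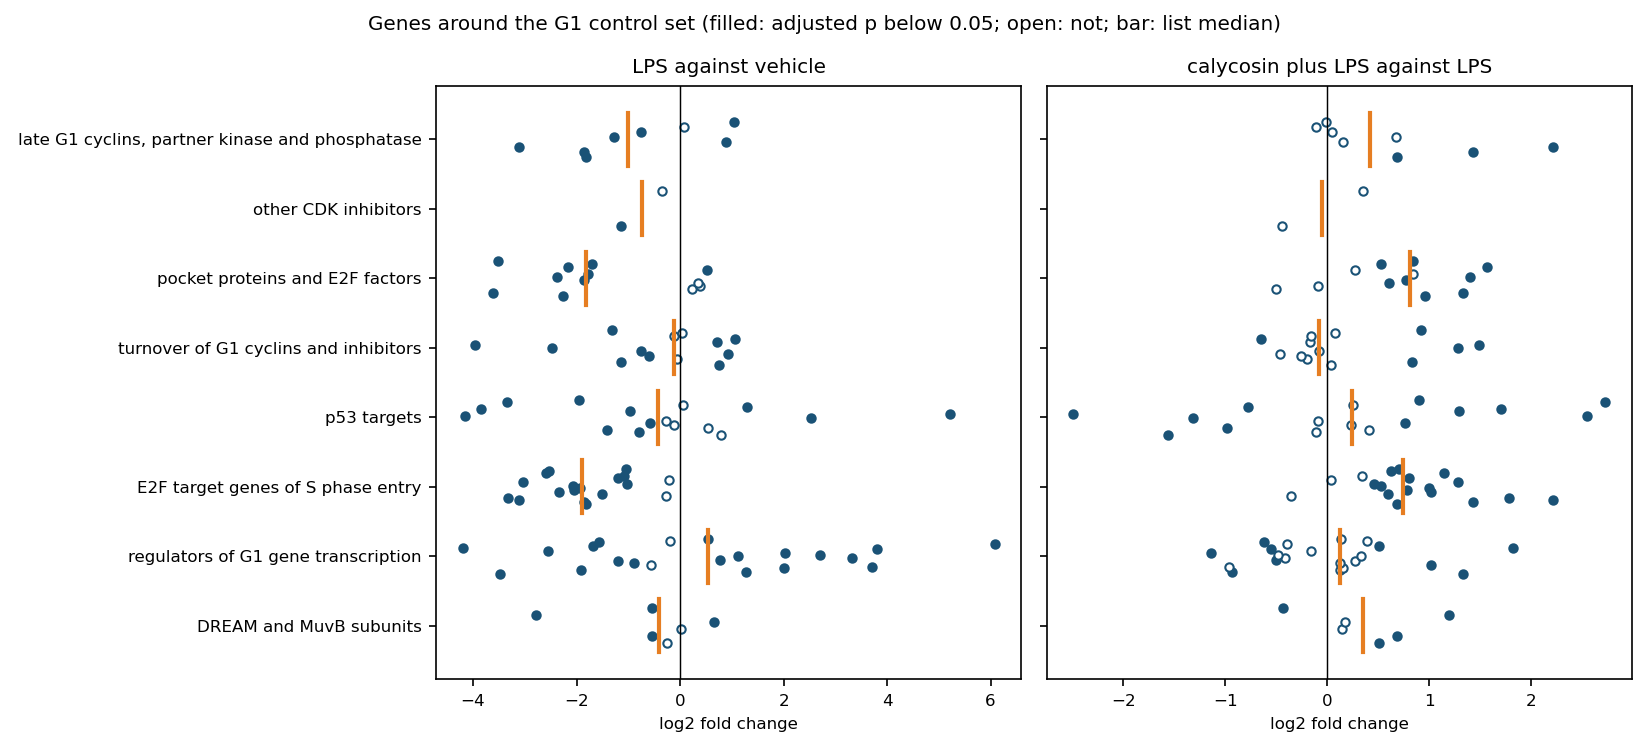
log2 fold change (horizontal axis) of every tested gene of 8 lists of G1-related genes (rows) in LPS against vehicle (left) and calycosin plus LPS against LPS (right); filled points passed an adjusted p of 0.05 in edgeR, open points did not, and orange bars are list medians. E2F factors and E2F targets lie mostly below 0 on the left (medians -1.82 and -1.9) and mostly above 0 on the right (0.81 and 0.74), while turnover genes, p53 targets and transcription regulators lie on both sides.

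Genes that set the lifetime of cyclin D, cyclin E and the inhibitors were mixed: of 13, 4 rose and 6 fell with LPS, while calycosin plus LPS against LPS had 4 higher and 1 lower. Of all genes tested 27.3% rose and 28.9% fell in the first comparison, and 16.1% and 12.9% in the second. The list medians were -0.11 and -0.08, beside -0.07 and 0.02 over all genes. On raw TPM limma called 0 genes of this list higher and 9 lower with LPS. With the library medians of TPM set equal it called 4 higher and 6 lower. Fbxo31, an F-box protein reported to direct cyclin D1 breakdown, fell from 39.7 to 2.54 CPM with LPS (log2 fold change -3.97, adjusted p = 2.72e-06). Fbxo31 was 1.49 higher with calycosin (adjusted p = 0.0038). Ambra1 and Fbxo4, of the same list, rose with LPS, by 0.75 (adjusted p = 0.000463) and 0.72 (adjusted p = 0.00722). Skp2, the F-box protein for p27, had log2 fold changes of -1.31 (adjusted p = 0.000273) and 0.92 (adjusted p = 0.00597), and its cofactor Cks1b of -1.15 (adjusted p = 0.000131) and 0.83 (adjusted p = 0.00316). Dtl, which targets p21 and Cdt1, had -2.47 (adjusted p = 0.000179) and 1.28 (adjusted p = 0.017). Fbxw7, the F-box protein for cyclin E, moved the other way: it rose by 1.06 with LPS (adjusted p = 0.000387) and was lower by 0.65 with calycosin (log2 fold change -0.65, adjusted p = 0.015).

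Genes known as p53 targets, of which Cdkn1a is one, went both ways. Of 16 tested genes of that list (Trp53 itself among them), 3 rose with LPS (Mdm2, Plk2, Sesn2) and 8 fell. Calycosin plus LPS against LPS had 6 higher and 5 lower. Of all genes tested 27.3% rose and 28.9% fell in the first comparison, and 16.1% and 12.9% in the second. The list medians were -0.42 and 0.24, beside -0.07 and 0.02 over all genes. Plk2, a stress-induced kinase, went from 13.9 to 520 CPM with LPS (log2 fold change 5.22, adjusted p = 6.41e-09) and to 92.7 CPM with calycosin (-2.49 against LPS, adjusted p = 2.33e-05). Sesn1 went the other way, from 34.2 to 2.38 to 7.84 CPM (-3.84, adjusted p = 4.05e-06, and 1.71, adjusted p = 0.00229), as did Trp53inp1 (-3.35, adjusted p = 3.12e-07, and 2.73, adjusted p = 3.27e-05) and Phlda3 (-4.15, adjusted p = 8.95e-06, and 2.55, adjusted p = 0.000943). Trp53 RNA differed by 0.06 with LPS (SE 0.1, adjusted p = 0.606).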

How the data were processed

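RNA was extracted with Trizol and poly(A) RNA was captured on beads, per the labels' protocols. The authors deposited raw counts per gene (whole numbers) and TPM values. The submitters' processing notes name Trimmomatic 0.36, HISAT2 2.0, StringTie 1.3.3b and mm10; what counted the reads, with which annotation and strand setting, is not given in the sources used here. Counts were tested with edgeR 4.0.16 in R 4.3.3 (filterByExpr, TMM factors 0.786 to 1.42, all 9 libraries, quasi-likelihood F test, two-sided, Benjamini-Hochberg over 14458 genes, threshold 0.05); SEs were derived from the test statistic. TPM served to compare genes. DESeq2 1.42.0 and limma 3.58.1 were alternatives. Positions and GC content came from GENCODE M21. Members and gene lists were chosen with earlier results of these data known. Every member was named. So were, from each list, up to 3 called genes with the largest change in LPS against vehicle. Up to 3 came in the same way from calycosin plus LPS against LPS. Genes named after their values were seen were Ccnh, Mnat1, Cdc25a, Cdk1, Cks1b, Fbxw7, Rbl1, Cdt1, Cdkn3, Mdm2, Sesn2, Mycn and Trp53. To these belong Ambra1, Fbxo4, Cdk7, Mxi1, Mnt, the marker genes and the genes that overlap members. Nothing says that replicates were separate cultures beyond the label "bio rep", so p-values measure the spread between these libraries. With 3 against 3, an exact two-sided permutation test cannot go below p = 0.1.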

Additional observations from a re-analysis of the deposited data

How the results depend on the processing

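Over 13 alternatives and 9 fits that leave out 1 library each, 584 of 660 member values kept direction and call, 38 lost the call, 10 gained it and 28 changed sign. All sign changes were in values that had passed no test: with LPS against vehicle Ccnd3 (0.25 among libraries with over 10% mitochondrial counts), Cdkn1b (-0.46 and -0.50 on log2(TPM + 1) and log2(TPM + 0.1), -0.04 with a GC offset, -0.20 among the high mitochondrial libraries) and Rb1 (0.09 without both libraries that stand apart, -0.43 to 0.09 leaving out 1 library). With calycosin plus LPS against LPS they were Ccnd3 (-0.04 with RLE scaling and with DESeq2, -0.14 with the replicate block, -0.13 with a GC offset, -0.37 without the libraries that stand apart and in the high mitochondrial ones, -0.39 to 0.44 leaving out 1 library) and Cdk2 (0.16 and 0.17 on TPM). Against vehicle they were Cdkn1b (0.16) and Rb1 (-0.30 and -0.32 on TPM, -0.11 with the mitochondrial covariate, -0.31 with a GC offset, -0.40 in the high mitochondrial libraries, -0.15 to 0.37 leaving out 1 library). Among list genes, Lin9 (-0.21 and -0.23 on TPM, LPS against vehicle), Lin37 (0.17 with a GC offset, LPS against vehicle; -0.20 on both TPM scales, calycosin plus LPS against vehicle) and Lin52 (-0.29, -0.31 and, with a GC offset, -0.10, against vehicle) changed sign. The cause was not tested.

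Members called higher with calycosin plus LPS against LPS numbered 0 on each TPM scale, 2 without both libraries that stand apart and 0 to 1 leaving out 1 library; members called lower numbered 0 on raw TPM. Against vehicle 1 was called higher on raw TPM. Of all genes, raw TPM with pseudocounts 1 and 0.1 called 1476 and 1481 higher and 6962 and 6960 lower with LPS (counts: 3954 and 4180), 1423 higher (pseudocount 1) and 335 and 333 lower with calycosin plus LPS against LPS (counts: 2333 and 1871), and 1500 and 1496 higher against vehicle (counts: 3672). With TPM medians set equal 1085 were higher against LPS; with the mitochondrial covariate 3307 were lower, and leaving out 1 library 1224 (without calycosin plus LPS replicate 1) to 2576. In the high mitochondrial libraries 1981 were lower against vehicle (counts: 3413). This set and the equal TPM medians were chosen after seeing the data.

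Same-numbered libraries did not deviate together (correlations -0.17 to 0.36), so the numbers were not taken as pairs. With the replicate block Cdk6 in calycosin plus LPS against LPS was -0.49 (adjusted p = 0.0557), and no other member's call changed.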

Other observations

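Transcription regulators known to act on G1 genes went both ways. Of 21, 11 rose and 8 fell with LPS, while calycosin plus LPS against LPS had 4 higher and 5 lower. Of all genes tested 27.3% rose and 28.9% fell in the first comparison, and 16.1% and 12.9% in the second. Myc went from 0.246 CPM in vehicle to 15.3 CPM with LPS and 11.7 CPM with calycosin plus LPS (adjusted p = 0.455 between the last 2). Mycn, the more abundant of the pair, fell from 413 to 139 CPM with LPS (log2 fold change -1.57, adjusted p = 7.45e-05) and stood at 90.6 CPM with calycosin plus LPS (-0.62 against LPS, adjusted p = 0.0311). Its dimer partner Max rose by 2.02 (adjusted p = 2.84e-05) and was lower with calycosin (log2 fold change -1.14, adjusted p = 0.00315). Of the Mxd repressors that compete with Myc for Max, Mxd1 rose from 6.03 to 84.1 CPM (3.8, adjusted p = 1.26e-08) and Mxd4 fell from 17.2 to 0.929 CPM (log2 fold change -4.2, adjusted p = 2.86e-06). Mxi1 and Mnt, of the same list, also fell with LPS (log2 fold change -1.69, adjusted p = 7.19e-07, and -2.56, adjusted p = 0.000112). Calycosin plus LPS stood at 57.4 CPM in Mxd1 and 3.28 CPM in Mxd4, each between the other 2 groups. Cebpa, a factor that restrains division of myeloid cells, had log2 fold changes of -3.48 (adjusted p = 3.72e-07) and 1.33 (adjusted p = 0.00094).

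Of 6 genes listed for DREAM, which silences E2F targets in resting cells, and for MuvB complexes, 3 fell with LPS (Lin52, Mybl2, Rbbp4). The 1 that rose was Lin9. Among all genes tested 28.9% fell and 27.3% rose. Mybl2, which replaces the pocket proteins on MuvB in dividing cells, fell from 53.7 to 7.8 CPM (log2 fold change -2.78, adjusted p = 1.34e-07) and was 1.2 higher with calycosin plus LPS against LPS (adjusted p = 0.000262). The core subunits changed less: Lin9 rose by 0.65 (adjusted p = 0.0108), Lin52 had -0.55 (adjusted p = 0.022) and Rbbp4 -0.55 (adjusted p = 0.00485). On TPM as deposited Lin9 had the opposite sign, -0.21.

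Over the 9 libraries, the genes whose log2 CPM around their own mean lay closest to that of a member, among 8183 genes searched, differed from it by a root mean square of 0.0704 (Cdk6 and Flt1) to 0.44 (Ccnd3 and C1qbp). The closest to Ccnd1 were Tsc22d4 (0.0821) and Tal1 (0.105), to Ccnd2 Otud5 (0.0719) and Itgal (0.0762), to Cdkn1a Capza2 (0.073) and Myof (0.079), and to Cdkn2c Sgsm2 (0.136) and Snx24 (0.199). The closest to Cdk4 were Wdr24 (0.0987) and E4f1 (0.1). These likenesses are descriptions over libraries of 3 groups.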
